A study of Mus musculus with 27 samples.

Results

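Small nucleolar RNAs (snoRNAs) and small Cajal body RNAs (scaRNAs) were followed in mouse T cells. Members were the rows of the count table whose symbol starts with Snora (H/ACA class), Snord (C/D class) or Scarna (scaRNA), with their host genes left out. The table of 26802 genes holds 69 of them, 19 H/ACA, 42 C/D and 8 scaRNAs, of 150 such symbols in the GENCODE annotation. Of the 69, 57 had enough counts to be tested: 12 H/ACA, 38 C/D and 7 scaRNAs. RNA was sequenced from 27 libraries, 3 in each of 9 groups.

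All cells came from C57BL/6 (B6) mice, from lymph node and spleen pooled, and were enriched as CD4+ or CD8+ T cells by magnetic removal of other cells. Wild-type (WT) cells were compared with Raptor knockout (KO) cells, which carry Tg(Cd4-cre)1Cwi and floxed Rptor, and with Rictor KO cells, which carry the same transgene and floxed Rictor. The transgene expresses Cre recombinase under Cd4 regulatory sequence, so deletion starts in T cell precursors and reaches both subsets. Raptor is the defining subunit of mTOR complex 1 and Rictor that of mTOR complex 2, the kinase complexes that couple growth signals to ribosome and protein synthesis. Resting cells had spent 48 h in IL-7 (5 ng/ml), which keeps T cells alive without activating them. Stimulated cells had spent 48 h on plate-bound anti-CD3 and anti-CD28 (10 µg/ml), which trigger the T cell receptor and its costimulator, and living cells were sorted from both cultures. Both subsets and both cultures are represented for WT and Raptor KO, and stimulated CD8+ cells alone for Rictor KO. Nothing in the labels says that the 3 libraries of a group are 3 mice, so the p-values reflect the spread among these libraries, which may be technical.

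SnoRNAs guide the chemical modification of ribosomal RNA (rRNA) in the nucleolus. C/D snoRNAs direct 2′-O-methylation by fibrillarin, H/ACA snoRNAs direct pseudouridylation by dyskerin, and scaRNAs do the same for spliceosomal RNAs in Cajal bodies. Most mammalian snoRNAs are cut out of introns of host genes, many of which encode ribosomal proteins or other translation factors, so that 1 transcript can supply a messenger RNA and several snoRNAs. A few are transcribed from their own promoters and act in the cleavage of the rRNA precursor: Snord118 (U8), which is needed for the 5.8S and 28S parts, and Snord13 (U13), which takes part in making the 18S part. T cell activation is known for a large rise in ribosome production.

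Sequences are shown for members whose values carry the results below. They are the GENCODE M21 transcripts on GRCm38, 5′ to 3′. In C/D members, capitals mark a C box (TGATGA) within the first 25 bases and a D box (CTGA) within the last 25, and in Snora30 the ACA within the last 6.
Snord53, C/D, intron of Wdr43, chr17:71640879-71640956, + strand: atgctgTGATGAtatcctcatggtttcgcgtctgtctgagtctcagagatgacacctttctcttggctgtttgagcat
Snord92, C/D, another intron of Wdr43, chr17:71631281-71631365, + strand: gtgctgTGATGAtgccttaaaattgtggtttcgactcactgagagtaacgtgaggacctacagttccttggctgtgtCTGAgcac
Snord32a, C/D, intron of Rpl13a, chr7:45127382-45127464, - strand: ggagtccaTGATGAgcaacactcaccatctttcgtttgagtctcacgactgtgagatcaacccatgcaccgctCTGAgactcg
Snord34, C/D, another intron of Rpl13a, chr7:45126601-45126670, - strand: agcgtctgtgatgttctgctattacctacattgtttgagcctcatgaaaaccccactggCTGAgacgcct
Snord17, C/D, intron of Snx5, chr2:144265979-144266216, - strand: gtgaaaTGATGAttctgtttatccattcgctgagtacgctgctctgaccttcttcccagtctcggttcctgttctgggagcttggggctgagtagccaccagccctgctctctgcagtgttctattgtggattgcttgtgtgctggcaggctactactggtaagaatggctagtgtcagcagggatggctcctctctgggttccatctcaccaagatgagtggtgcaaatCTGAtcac
Snord93, C/D, intron of 2700038G22Rik, chr5:23852210-23852280, + strand: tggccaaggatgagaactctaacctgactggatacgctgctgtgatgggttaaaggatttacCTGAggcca
Snora30, H/ACA, intron of Srcap, chr7:127527874-127528003, + strand: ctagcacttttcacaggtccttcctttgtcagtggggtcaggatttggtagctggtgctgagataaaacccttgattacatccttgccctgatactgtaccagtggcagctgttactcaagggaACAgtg

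Both boxes, spelled exactly so on the transcript's strand, were found in 25 of 42 C/D members, in 0 of 19 H/ACA members and in 4 of 8 scaRNAs. Among 6855 other annotated transcripts of 60 to 250 bases, 0.0875% held both. An ACA in the last 6 bases was found in 18 of 19 H/ACA members, in 3 of 42 C/D members and in 7.47% of the other transcripts. The exact sequence features therefore go with the 2 named classes only in part. The C box was found in 26 and the D box in 41 of 42 C/D members, and the D box in 3 of 19 H/ACA members. Snord34 and Snord93 have no TGATGA in that window, and Snord53 has no CTGA in its own.

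Of the 69 members, 54 lie in an intron of every transcript of a host gene, 7 overlap an exon of a host transcript, and 8 have no host gene on their strand. The 61 hosted members share 53 host genes. Of these members 50 sit in protein-coding hosts, 14 of them in ribosomal protein genes. What the table holds moves with the annotation. Of 73 symbols that overlap an exon of another gene on the same strand, 3 reached a mean of 1 on the counts-per-million scale (CPM), 10 lay below it and 60 were not in the table. Of 74 symbols that overlap no other exon, 55 reached 1 CPM, 1 lay below it and 18 were not in the table. Snora73a, Snora73b, Snord3a, Snord22 and the Snord14 genes, which are known for pre-rRNA cleavage, and the imprinted clusters Snord113 to Snord116 were not analysed here. The low H/ACA total below is thus the total of the H/ACA members that were counted.

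Total counts were between 8640699 and 16817347 per library, of which 81.1% to 88.4% fell on Rn45s, the rRNA precursor. The other counts numbered 1522199 to 2515583 per library, and levels are given in CPM of these non-Rn45s counts. They are shares of the sequenced RNA and not amounts per cell, and fewer cells of a type and less RNA per cell cannot be told apart. Cd4 was at 176 to 333 CPM in WT CD4+ and at most 4.41 CPM in CD8+ libraries, and Cd8a at 85.4 to 353 CPM in CD8+ and at most 5.54 CPM in CD4+ libraries. The summed T cell markers were at 250 to 952 CPM, and those of B, NK, myeloid and erythroid cells at no more than 12.6, 3.59, 64.1 and 30.7 CPM in any library. Rptor, whose whole-gene count includes exons outside the deleted part, was at 28.7 to 38.2 CPM in stimulated WT and 17.6 to 25.0 CPM in stimulated Raptor KO libraries, with no overlap, and overlapped between resting WT and Raptor KO libraries. Rictor was at 57.4 to 66.4 CPM in stimulated WT CD8+ and 43.6 to 57.2 CPM in Rictor KO libraries.

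In resting cells 3 libraries stood apart in the members, each of them library 3 of its group. In Raptor KO CD4+ resting library 3, 30 of 57 tested members were more than 2 times as high as in both other libraries of the group and 11 more than 5 times, led by Snord58b at 25.0 times the higher of the others. In Raptor KO CD8+ resting library 3 the counts were 29 and 11, and Snord58b stood at 30.9 times. WT CD4+ resting library 3 went the other way, with 52 of 57 members below both other libraries. Small nuclear RNAs took 24.1%, 25.4% and 5.94% of non-Rn45s counts in these 3 libraries and 6.39% to 17.1% in the other 24. The excess in the 2 Raptor KO libraries was larger in low members. Their median log2 difference from the other libraries of the group was 2.09 (CD4+) and 2.19 (CD8+) in the lower 28 tested members. In the higher 28 it was 0.86 and 0.89. Over C/D members, Spearman's rho between mean CPM and the group log2 fold change, Raptor KO over WT resting, was -0.78 in CD4+ and -0.82 in CD8+ cells (n = 38 members that share the same libraries). Over H/ACA members it was -0.26 and -0.29 (n = 12). The part of small nuclear RNA content in these values was not tested. Results are given with all 27 libraries and, where it changes them, without these 3.

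**Figure D1:**
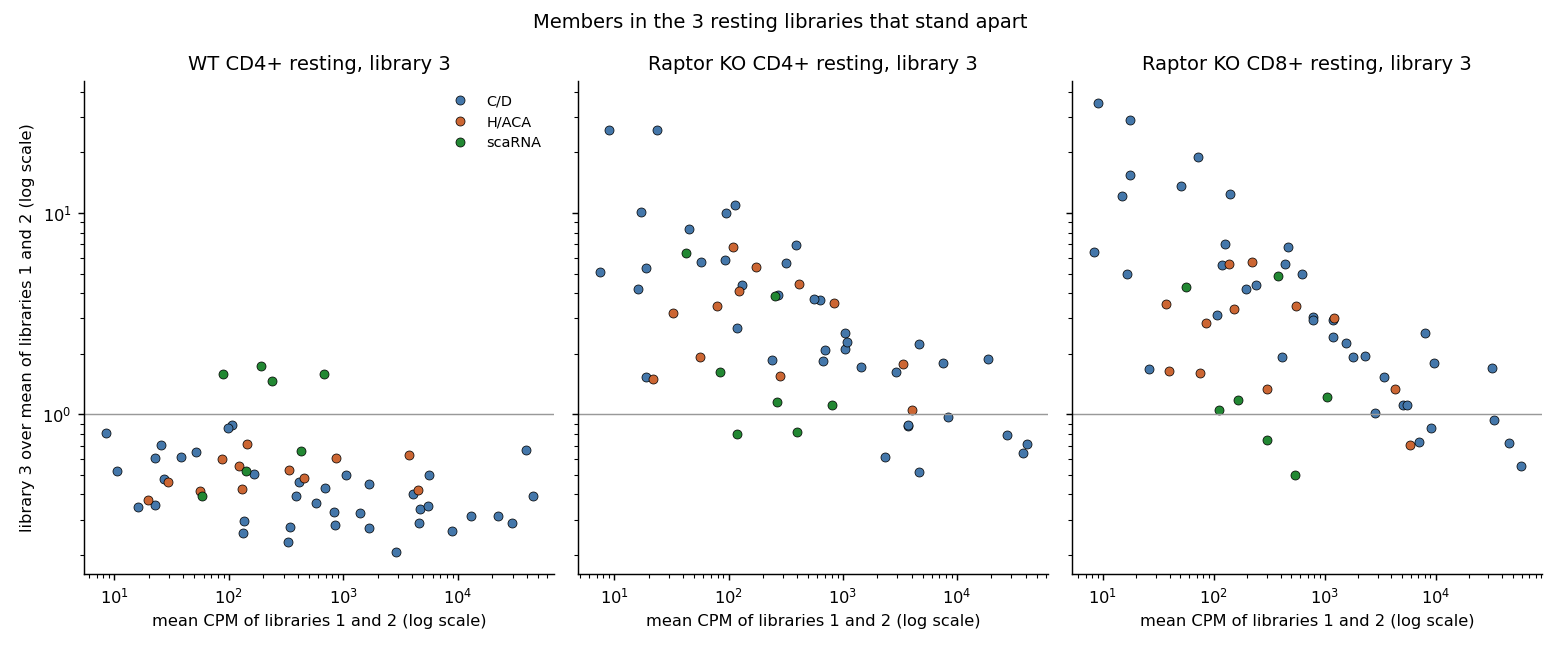
Level of each tested member in library 3 of 3 resting groups, divided by the mean of libraries 1 and 2 (y axis, log scale), against that mean in CPM (x axis, log scale); each point is 1 member, coloured by class, and the line marks equality. In WT CD4+ cells most points lie below the line, and in both Raptor KO groups the points rise toward low levels, up to Snord58b.

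C/D snoRNAs made up nearly all of the signal. Their summed level ran from 80245 to 262759 CPM over the 27 libraries, against 3485 to 18961 CPM for H/ACA members and 686 to 4189 CPM for scaRNAs. The highest C/D means over the 27 libraries were Snord49a at 31228 CPM, Snord32a at 26150, Snord17 at 23213, Snord83b at 20789, Snord13 at 12165 and Snord49b at 8552 CPM. Per kilobase of RNA, which allows levels of different genes to be set side by side, the order was Snord49a at 433721, Snord32a at 315066, Snord83b at 221155, Snord49b at 118776, Snord13 at 116972 and Snord17 at 97532 CPM per kb, with the long Snord17 last of the 6. The 6 highest H/ACA members were Snora78 at 3513 CPM, Snora30 at 2531, Snora57 at 1322, Snora21 at 490, Snora17 at 367 and Snora62 at 216 CPM. Snora78, at 27444 CPM per kb, was thus well below each of those 6 C/D members on the same per-length scale. Among scaRNAs the order was Scarna2 at 565 CPM, Scarna6 at 301, Scarna17 at 278, Scarna13 at 235, Scarna9 at 128 and Scarna3a at 75.8 CPM.

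With stimulation the summed level of both classes was lower in every genotype and subset, and the H/ACA sum was lower by more than the C/D sum. In resting WT CD4+, WT CD8+, Raptor KO CD4+ and Raptor KO CD8+ cells the C/D sum was 158082 ± 72380, 236458 ± 28674, 176822 ± 10871 and 243540 ± 16648 CPM (SD, n = 3 each). In the stimulated cells of the same 4 kinds it was 121416 ± 46012, 105733 ± 17873, 155861 ± 39001 and 151513 ± 47614 CPM (SD, n = 3 each). In the C/D sum the 2 cultures overlapped in CD4+ cells of both genotypes and did not overlap in CD8+ cells of either. The H/ACA sum was 8831 ± 3113, 14334 ± 2328, 12407 ± 5022 and 15007 ± 3734 CPM in the 4 resting groups, in the same order, and 5495 ± 2218, 5245 ± 885, 7177 ± 1910 and 7977 ± 3591 CPM in the 4 stimulated groups (SD, n = 3 each). In the H/ACA sum the cultures overlapped in WT CD4+ and Raptor KO CD8+ cells and did not overlap in WT CD8+ and Raptor KO CD4+ cells.

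H/ACA counts per 100 C/D counts gave the class balance within a library. They were 5.85 ± 0.88, 6.04 ± 0.32, 6.95 ± 2.45 and 6.12 ± 1.15 in resting WT CD4+, WT CD8+, Raptor KO CD4+ and Raptor KO CD8+ cells and 4.49 ± 0.22, 4.96 ± 0.06, 4.59 ± 0.08 and 5.13 ± 0.64 in the stimulated ones (SD, n = 3 each). Rictor KO stimulated CD8+ cells had 4.06 ± 0.16 (SD, n = 3). Between cultures the ratio overlapped in Raptor KO CD8+ cells (4.93 to 7.22 at rest, 4.73 to 5.87 when stimulated) and in no other of the 4 kinds. Averaged over the 4 kinds of cell, the log2 ratio was lower by 0.36 after stimulation (mean difference -0.36, pooled SD within groups 0.22), the log2 H/ACA sum differed by -0.97 (SD 0.47) and the log2 C/D sum by -0.61 (SD 0.41). Between libraries of the same code the ratio's 12 differences were all negative. They were -0.69, -1.11 and -0.61 where the resting library was one that stood apart, and -0.37 to -0.04 elsewhere. With the median log2 CPM over tested members of each class in place of the sum the ratio's difference was +0.46. Without the most abundant member of each class, Snora78 and Snord49a, it was -0.25. In library 1 of WT CD4+ cells the fall of Snora30, from 5303 to 1237 CPM, exceeded that of the H/ACA sum, from 11673 to 7874 CPM. In library 1 of WT CD8+ cells Snora30 went from 5150 to 655 CPM and the sum from 15786 to 5618 CPM. As a share of the summed snoRNA and scaRNA counts, Snora30 was at 1.78% to 1.89% in resting and 0.507% to 0.554% in stimulated WT CD8+ libraries. In the same libraries Snora78 was at 2.19% to 2.57% at rest and 2.08% to 2.18% when stimulated. Snora57 was at 0.541% to 0.646% and 1.04% to 1.14%. The H/ACA members thus did not move alike. No ratio without Snora30 is given, so its part in the lower ratio was not tested. The median of the members' TMM-scaled log2 fold changes was lower in H/ACA than in C/D members in each of the 4 kinds of cell, at -0.93 against -0.64 in WT CD4+, -2.28 against -1.99 in WT CD8+, -1.49 against -0.63 in Raptor KO CD4+ and -1.59 against -1.37 in Raptor KO CD8+ cells. Without the 3 libraries that stood apart the Raptor KO medians were -0.49 against 0.26 (CD4+) and -0.53 against -0.23 (CD8+). For Raptor KO minus WT the same averages were +0.07 for the ratio, +0.37 for H/ACA and +0.30 for C/D. With all libraries each was positive in all 4 combinations of subset and culture. Between libraries of the same code 9, 8 and 7 of 12 differences were positive. Each average was also smaller than the pooled SD within groups (0.22, 0.47 and 0.41), which is the spread of single libraries and not the uncertainty of an average. At rest the H/ACA differences of libraries 1 and 2 were -0.31 and 0.04 (CD4+) and -0.12 and -0.43 (CD8+). In library 3 they were 1.73 and 0.70. For C/D they were -0.32 and -0.05 (CD4+) and -0.15 and -0.07 (CD8+) in libraries 1 and 2, and 1.22 and 0.36 in library 3. Without the 3 libraries that stood apart the ratio's average was -0.00012. No p-value is given for these sums, since the members were chosen with results known.

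The rest of the RNA moved with stimulation too. Protein-coding genes took 18.7% to 45.2% of non-Rn45s counts in resting libraries and 31.8% to 63.6% in stimulated ones. In CPM of protein-coding counts, the average differences were -1.64 for the H/ACA sum and -1.28 for the C/D sum, both larger than on the non-Rn45s scale.

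**Figure D2:**
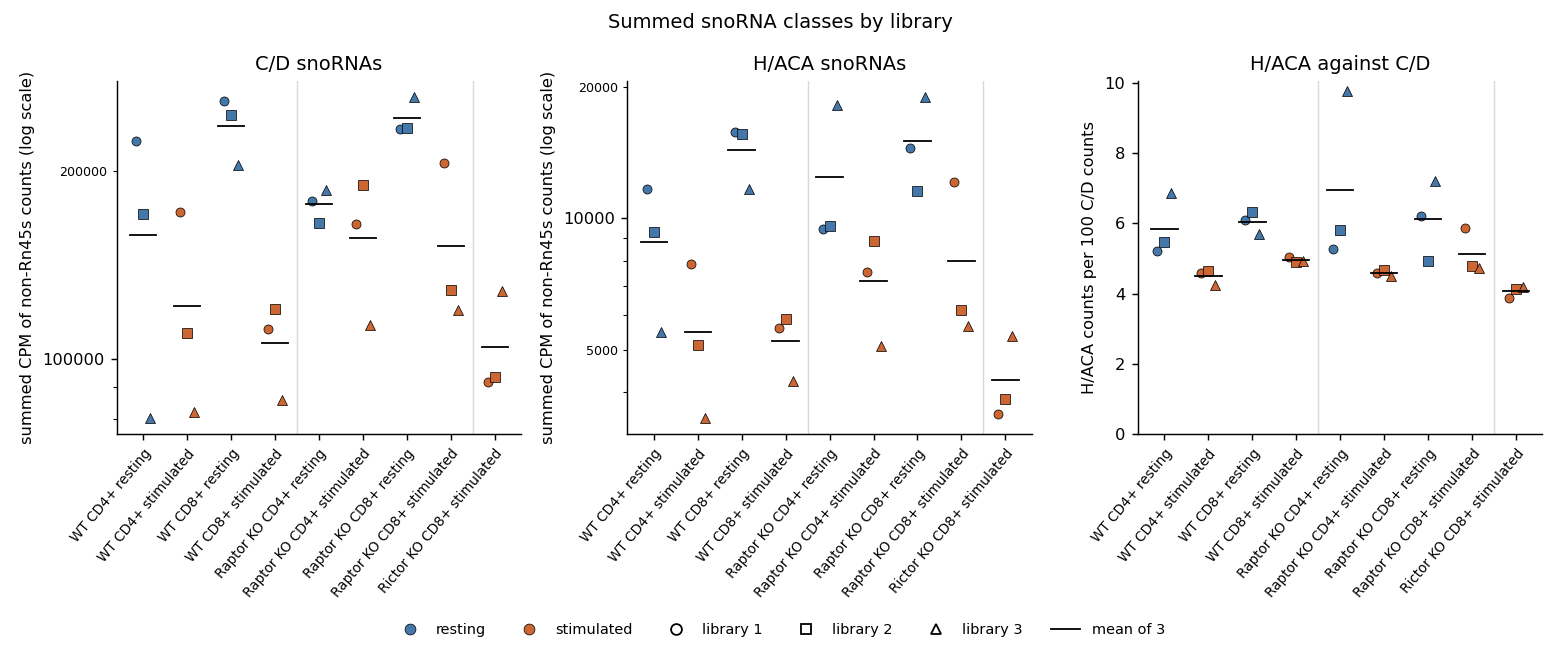
Summed CPM of C/D members (left, log scale) and of H/ACA members (centre, log scale) and H/ACA counts per 100 C/D counts (right, linear from 0) in each of the 27 libraries of 9 groups; symbols mark libraries 1 to 3, colours the culture, and bars the mean of 3. Stimulated groups have lower means than the resting group of the same genotype and subset in all 3 panels, and Raptor KO CD4+ resting library 3 has the highest ratio, 9.76.

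Single members were tested with edgeR's quasi-likelihood test over 10493 genes, with log2 fold changes scaled by TMM, which sets most genes to no change. On this scale the median of all genes lay between -0.03 and +0.04 in the 4 stimulation comparisons. Without TMM, scaled to non-Rn45s totals alone, that median was +0.46 in WT CD4+, +0.87 in WT CD8+, +0.27 in Raptor KO CD4+ and +0.55 in Raptor KO CD8+ cells, so the folds below lie under plain CPM ratios by about that much.

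Most members that changed with stimulation fell. In WT CD4+ cells 8 of 57 members fell and 2 rose, where 64.9% of all genes tested were called, and in WT CD8+ cells 34 fell and 2 rose, where 62.8% were called. In Raptor KO CD4+ cells 10 fell and 1 rose against 52.0% of all genes called, and in Raptor KO CD8+ cells 23 fell and 1 rose against 55.6%. In WT CD4+ cells 3397 genes rose and 3414 fell. The members' median log2 fold change was -0.84 in WT CD4+, -2.17 in WT CD8+, -0.84 in Raptor KO CD4+ and -1.46 in Raptor KO CD8+ cells. Without the 3 libraries that stood apart these medians were -1.18, -2.13, -0.10 and -0.30.

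By class, 7 of 12 H/ACA, 21 of 38 C/D and 6 of 7 scaRNAs fell in WT CD8+ cells, with medians of -2.28, -1.99 and -2.17. In WT CD4+ cells 1 of 12 H/ACA, 3 of 38 C/D and 4 of 7 scaRNAs fell, with medians of -0.93, -0.64 and -1.34. With TMM scaling more members fell than rose in each class, whereas in C/D members 6 rose and 3 fell in WT CD4+ cells when scaled to the snoRNA sum or to non-Rn45s totals, and 8 rose and 3 fell in WT CD8+ cells when scaled to the snoRNA sum. The 2 that rose with TMM scaling in WT cells, Snord53 and Snord93, were both C/D. A further 77 tested genes of snoRNA or scaRNA biotype that carry other symbols gave like counts, 16 down and 2 up in WT CD4+ and 39 down and 3 up in WT CD8+ cells. Whether stimulation acted differently in Raptor KO than in WT cells was tested directly: the difference of the 2 effects passed for 0 of 57 members in CD4+ cells, where 5.82% of all genes passed, and for 0 in CD8+ cells, where 2.89% passed (edgeR; DESeq2 also called 0, and 1 and 2 members had an unadjusted p under 0.05). The members' median difference was -0.13 in CD4+ and 0.65 in CD8+ cells, with median SEs of 1.14 and 1.10. Without the 3 libraries that stood apart these medians were 1.04 and 1.70, and again 0 members passed. Differences of the size of the SEs could not be detected in single members, so 0 calls do not show equal effects.

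**Figure D3:**
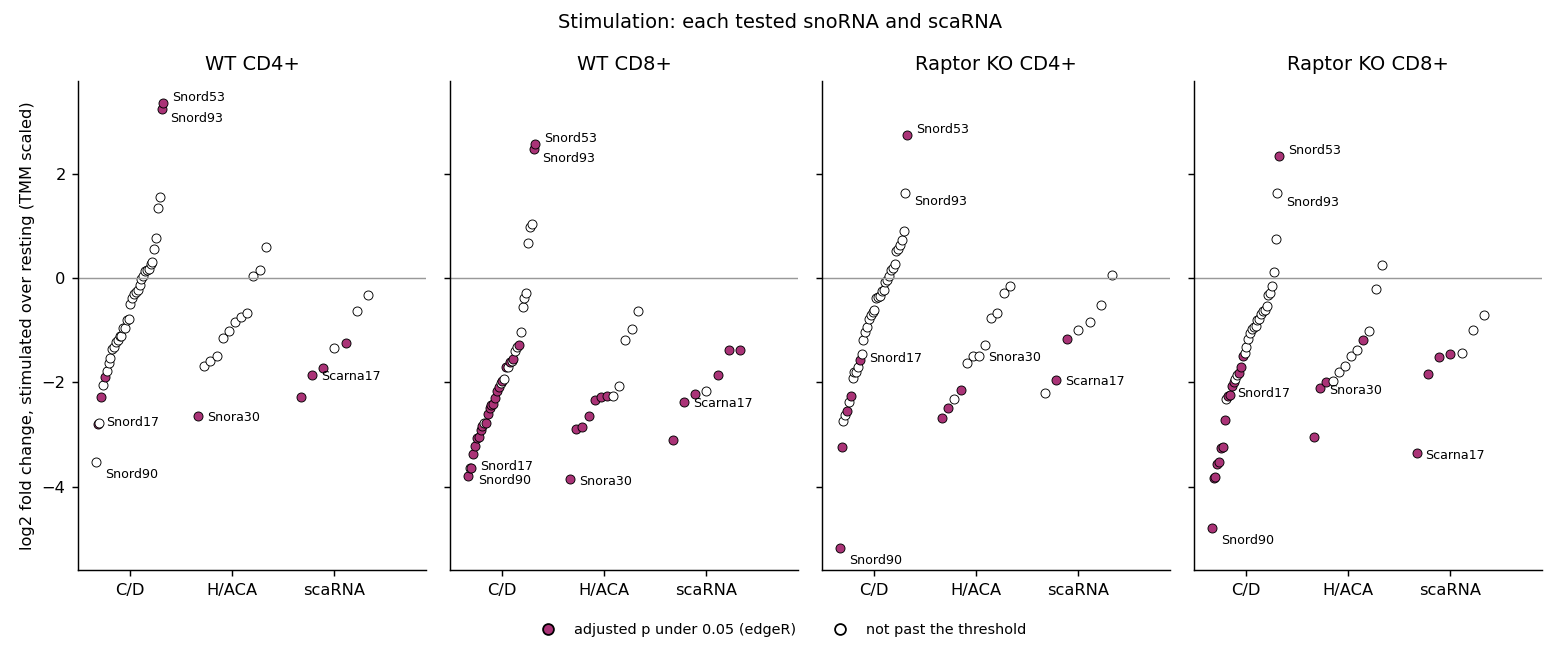
Log2 fold change with stimulation (y axis, TMM scaled, edgeR) of each of the 57 tested members, ordered within its class, in the 4 kinds of cell; filled points passed an adjusted p of 0.05. Snord53 is the top member in each panel, and most filled points lie below 0.

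Snord53, a C/D snoRNA that guides 2′-O-methylation of 28S rRNA, rose in all 4 comparisons. It was at 24.5, 29.5 and 12.9 CPM in resting WT CD4+ libraries and at 408, 269 and 260 CPM in stimulated ones. In WT CD8+ cells the values were 28.0, 29.4 and 30.5 CPM at rest and 289, 390 and 274 CPM after stimulation. Every stimulated library lay above every resting one, by far more than the spread within a group. Raptor KO cells had 15.3, 22.3 and 28.8 CPM (CD4+) and 26.0, 25.9 and 43.7 CPM (CD8+) at rest, and 184, 185 and 174 CPM (CD4+) and 287, 257 and 171 CPM (CD8+) when stimulated. Log2 fold changes were 3.36 (SE 0.53, adjusted p = 1.8e-05) in WT CD4+, 2.58 (SE 0.51, adjusted p = 0.00022) in WT CD8+, 2.76 (SE 0.52, adjusted p = 0.00021) in Raptor KO CD4+ and 2.35 (SE 0.50, adjusted p = 0.00059) in Raptor KO CD8+ cells. Snord53 kept its call and its direction under all 6 scalings tried in each of these comparisons.

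Snord93, a C/D snoRNA in an intron of the noncoding host 2700038G22Rik, went the same way. It was at 19.3, 12.7 and 5.54 CPM in resting and 236, 168 and 81.6 CPM in stimulated WT CD4+ cells (log2 fold change 3.25, SE 1.05, adjusted p = 0.011). WT CD8+ cells had 21.6, 15.0 and 16.0 CPM at rest and 245, 191 and 106 CPM after stimulation (2.48, SE 0.99, adjusted p = 0.036). The cultures did not overlap in either subset. In Raptor KO cells it did not pass, with log2 fold changes of 1.64 in CD4+ (adjusted p = 0.15) and 1.63 in CD8+ cells (adjusted p = 0.13). Without the 3 libraries that stood apart these were 2.97 (adjusted p = 0.019) and 3.32 (adjusted p = 0.0085), since resting Snord93 was at 68.1 and 83.2 CPM in the 2 Raptor KO libraries and at 14.1 to 18.6 CPM in the other 4. The WT CD8+ call was lost when any of 5 of its 6 libraries was left out (log2 fold changes 2.20 to 2.81), and the WT CD4+ call without resting library 3 (2.76).

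Snord17, a long C/D snoRNA from Snx5 and one of the 4 most abundant members, fell in all 4 comparisons. Resting WT CD4+ libraries had 47356, 31694 and 26435 CPM and stimulated ones 9739, 5435 and 5461 CPM (log2 fold change -2.80, SE 0.45, adjusted p = 7.4e-07). WT CD8+ cells went from 38676, 41461 and 37334 CPM to 5539, 6324 and 5404 CPM (-3.64, SE 0.46, adjusted p = 7.3e-09). Within each subset all stimulated WT libraries were below all resting ones. In Raptor KO CD4+ cells the levels were 42671, 39474 and 29386 CPM at rest and 12096, 17785 and 12797 CPM when stimulated (-1.57, SE 0.43, adjusted p = 0.0020). In Raptor KO CD8+ cells they were 52606, 65625 and 32856 CPM at rest and 17472, 10276 and 13960 CPM when stimulated (-2.25, SE 0.44, adjusted p = 3.0e-05). Here too the cultures did not overlap, and the stimulated Raptor KO libraries all lay above the stimulated WT ones.

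Snora30, an H/ACA snoRNA from Srcap, fell from 5303, 3734 and 1902 CPM to 1237, 709 and 448 CPM in WT CD4+ cells (-2.64, SE 0.67, adjusted p = 0.0021) and from 5150, 4983 and 3875 CPM to 655, 644 and 475 CPM in WT CD8+ cells (-3.86, SE 0.71, adjusted p = 0.00011). In Raptor KO CD8+ cells its log2 fold change was -2.11 (adjusted p = 0.011), and in Raptor KO CD4+ cells it did not pass (-1.48, adjusted p = 0.063). Snord32a, a C/D snoRNA from the ribosomal protein gene Rpl13a, fell in 3 of the 4 comparisons, with log2 fold changes of -1.89 in WT CD4+, -3.04 in WT CD8+ and -1.50 in Raptor KO CD8+ cells, and was at -0.61 in Raptor KO CD4+ cells (adjusted p = 0.28). Snora78, the most abundant H/ACA member, fell in WT CD8+ and Raptor KO CD8+ cells (-2.27 and -1.18) and did not pass in CD4+ cells. Its Raptor KO CD8+ call was lost without the 3 libraries that stood apart (-1.09, adjusted p = 0.076). Snord49a, the most abundant member, passed only in WT CD8+ cells (-1.28, adjusted p = 0.023), and its log2 fold changes elsewhere were -0.01, +0.28 and -0.32.

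Among scaRNAs, Scarna2 and Scarna17 fell in all 4 comparisons with all 27 libraries. Both lack a host gene on their strand. Scarna2 was at 675, 684 and 1074 CPM in resting and 427, 273 and 229 CPM in stimulated WT CD4+ cells, and at 593, 563 and 583 CPM against 273, 348 and 249 CPM in WT CD8+ cells. No stimulated library reached a resting one. Its log2 fold changes were -1.72, -1.86, -1.16 and -1.85 in WT CD4+, WT CD8+, Raptor KO CD4+ and Raptor KO CD8+ cells (adjusted p = 0.0012, 0.00068, 0.022 and 0.00087). Scarna17 had -1.86, -2.37, -1.94 and -3.36 in the same order, and Raptor KO CD8+ resting library 3 alone held 1864 CPM of it against 308 and 455 CPM. Scarna6 fell in both WT subsets and in Raptor KO CD8+ cells (-1.25, -2.22 and -1.46), as did Scarna3a (-2.28, -3.10 and -1.51). Without the 3 libraries that stood apart, Scarna2 (-0.91, adjusted p = 0.086) and Scarna17 (-0.64, adjusted p = 0.30) lost their calls in Raptor KO CD4+ cells and Scarna3a (-1.21, adjusted p = 0.069) in Raptor KO CD8+ cells, and the other calls of these 4 scaRNAs held.

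Several of the lowest folds in Raptor KO cells rest on the libraries that stood apart. Snord90 was at 604 and 508 CPM in library 3 of the resting Raptor KO CD4+ and CD8+ groups and at 11.8 to 27.0 CPM in their other 4 libraries. Its log2 fold changes with stimulation were -5.18 (adjusted p = 0.012) and -4.79 (adjusted p = 0.014) and became -1.52 and -0.79 without the 3 libraries, past the threshold in neither. Snord8 (-3.24 and -3.82 in CD4+ and CD8+, -0.73 and -0.95 without), Snord85 (-3.83 in CD8+, -0.70 without), Snora20 (-2.68 in CD4+, -1.01 without) and Snord71 (-2.55 in CD4+, -0.58 without) lost their calls in the same way. Snord58b was at -3.56 in Raptor KO CD8+ cells and at +0.69 without them.

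Without the 3 libraries the counts of members were 23 down and 2 up in WT CD4+ cells (60.3% of all genes called), 45 down and 2 up in WT CD8+ (63.6%), 1 down and 3 up in Raptor KO CD4+ (47.7%) and 7 down and 3 up in Raptor KO CD8+ cells (51.8%). Snord17 fell and Snord53 and Snord93 rose in each of the 4. In Raptor KO CD4+ cells those 3 and Snord7 (+2.09) were the members called.

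**Figure D4:**
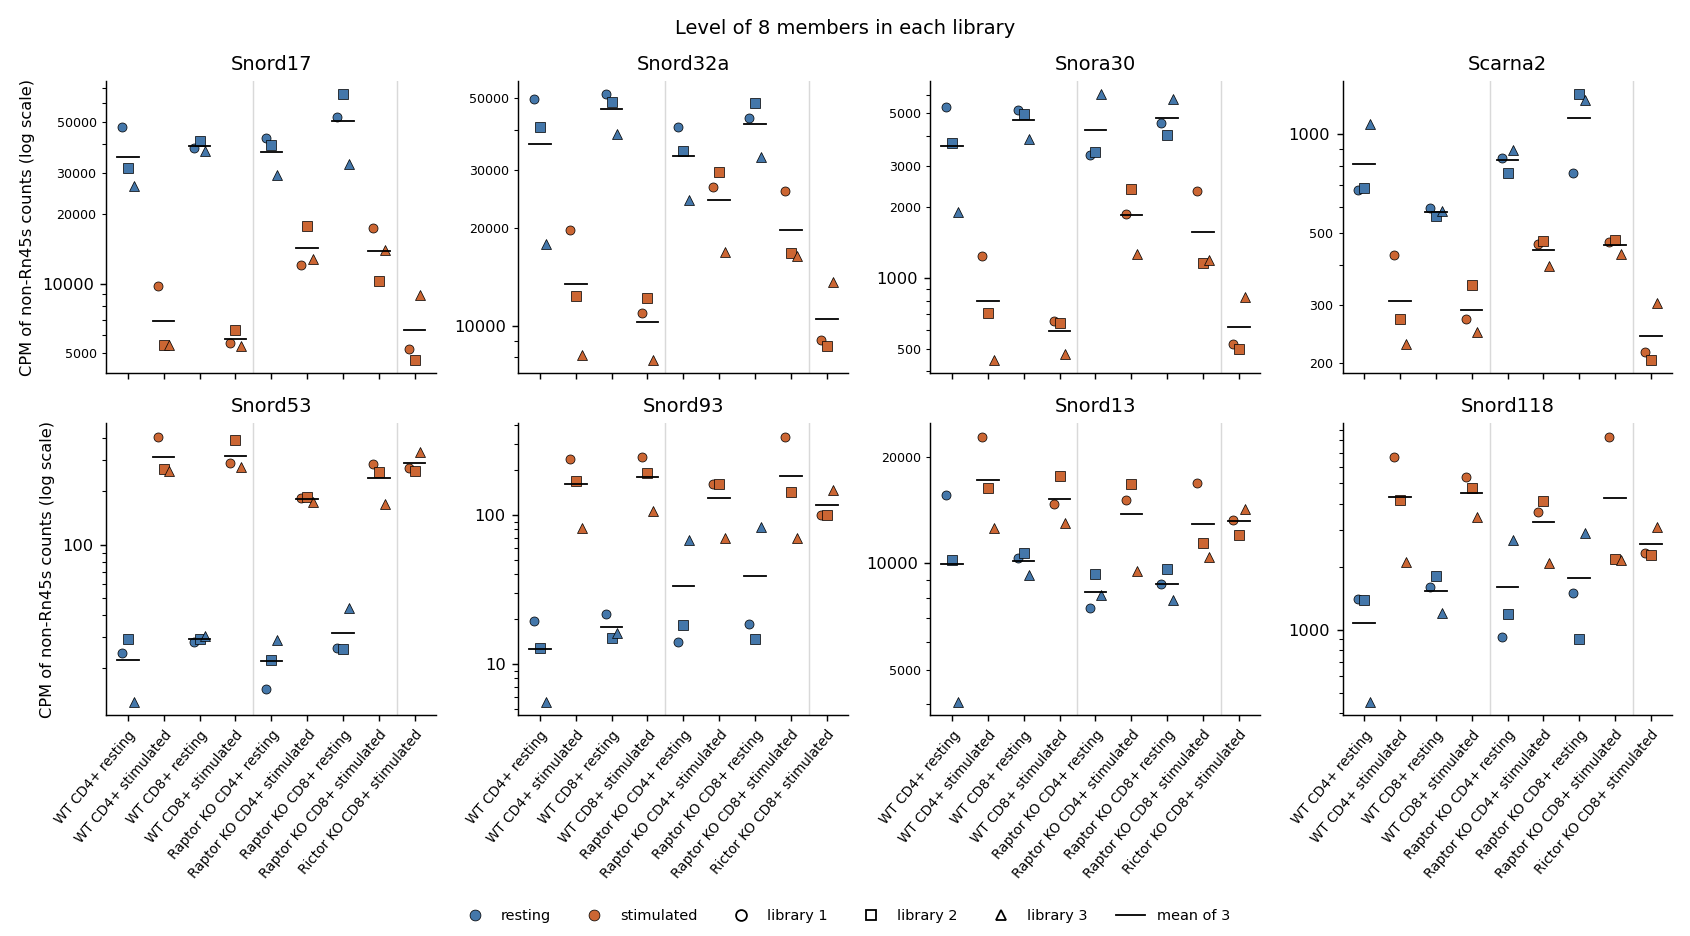
CPM of non-Rn45s counts (y axis, log scale) of 8 members in each of the 27 libraries of 9 groups; symbols mark libraries 1 to 3, colours the culture, and bars the mean of 3. Snord17, Snord32a, Snora30 and Scarna2 have lower means in the stimulated groups, and Snord53, Snord93, Snord13 and Snord118 higher ones, with single libraries such as WT CD4+ resting library 3 standing apart.

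Set against the summed snoRNA and scaRNA counts of the library, the members were rearranged. On this scale 6 members rose and 6 fell in WT CD4+ cells (38.2% of all genes called), 9 rose and 4 fell in WT CD8+ (72.0%), 2 rose and 12 fell in Raptor KO CD4+ (21.4%) and 4 rose and 10 fell in Raptor KO CD8+ cells (49.0%). Scaling to so few RNAs moves the median of all genes up by 0.56 to 2.05, so only the order among the members can be read from it.

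Snord13 and Snord118, which have no host gene, rose relative to the other snoRNAs. As a percentage of the summed snoRNA and scaRNA counts, Snord13 was at 6.60, 5.63 and 4.60 in resting and 12.6, 14.1 and 14.5 in stimulated WT CD4+ libraries. In WT CD8+ cells it went from 3.74, 4.06 and 4.27 to 12.5, 14.0 and 14.4. Its share in stimulated WT libraries was thus above that in each resting one, by log2 fold changes of 1.29 in CD4+ (adjusted p = 0.047) and 1.76 in CD8+ cells (adjusted p = 0.0028), and it also rose in Raptor KO CD8+ cells (1.27, adjusted p = 0.042). With TMM scaling Snord13 did not pass in any of the 4 comparisons, with log2 fold changes of 0.28, -0.29, 0.53 and 0.11. Snord118 rose relative to the snoRNA sum by 2.38 in WT CD4+, 2.74 in WT CD8+ and 1.85 in Raptor KO CD8+ cells. With TMM scaling it was at 1.56, 0.68, 0.73 and 0.75 and did not pass, and scaled to non-Rn45s totals it passed in the 2 WT subsets (2.00 and 1.56). Its sign was the same under all 6 scalings, whereas that of Snord13 turned with the scaling in CD8+ cells of both genotypes.

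Snord17 and Snord32a lost share. Snord17 made up 20.0%, 17.4% and 30.0% of the sum in resting WT CD4+ and 5.37%, 4.68% and 6.32% in stimulated WT CD4+ libraries, and 14.0%, 15.7% and 17.1% against 4.69%, 4.98% and 5.96% in WT CD8+ libraries. Relative to the sum it fell in both (-2.04 and -1.58), as did Snora30 (-1.83 and -1.80) and Snord61 (-1.63 and -1.78), a C/D snoRNA from Rbmx. Snord49a, Snord32a, Snord17 and Snord83b together held 57.5% to 74.9% of the C/D counts of resting libraries and 51.2% to 60.9% of stimulated ones.

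Members of the same host gene share a precursor transcript, and their ratio within a library is free of any scaling. In all, 9 pairs of tested members share a host, in 5 hosts, and all 9 were compared between cultures with an exact permutation test within the 4 kinds of cell (two-sided, 24 libraries, 160000 arrangements, smallest possible p 1.25e-05, Benjamini-Hochberg over the 9 pairs). This comparison was devised after values had been seen, and pairs of 1 host share members.

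The pair from Wdr43, a gene for a protein of the small-subunit processome, came apart most. Snord53 divided by Snord92 was 0.55, 0.55 and 0.93 in resting and 5.66 to 9.88 in stimulated WT CD4+ libraries, and 0.26 to 0.36 against 5.32 to 7.13 in WT CD8+ libraries. In Raptor KO libraries it was 0.063 to 0.74 at rest and 1.68 to 4.69 when stimulated. No stimulated library overlapped a resting one. The mean log2 difference was 3.78 (exact permutation adjusted p = 5.6e-05), with 3.54, 4.23, 3.78 and 3.58 in the 4 kinds of cell. Without the 3 libraries that stood apart the mean was 3.29 (exact permutation adjusted p = 0.00011). The resting ratio was 0.077 and 0.063 in library 3 of Raptor KO CD4+ and CD8+ cells and 0.39 to 0.74 in the other libraries of these groups. Snord92 itself did not pass in any of them (log2 fold changes -0.22, -1.70, -1.92 and -2.32), and Wdr43 rose by 1.47, 1.24, 0.98 and 1.29.

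Of the 3 snoRNAs of Rpl13a, 1 fell against the other 2, whose own ratio did not pass. Snord32a divided by Snord34 was 11.0 to 11.2 in resting and 2.48 to 2.81 in stimulated WT CD4+ libraries and 6.12 to 7.89 against 2.68 to 2.80 in WT CD8+ libraries. The mean log2 difference over the 4 kinds of cell was -1.41 (exact permutation adjusted p = 5.6e-05), and for Snord32a over Snord35a it was -1.33 (adjusted p = 0.00020). For Snord34 over Snord35a the difference was 0.08 (exact permutation p = 0.46), with 0.12, -0.07, 0.22 and 0.05 in the 4 kinds of cell. Their resting ratio was 1.33 and 1.38 in library 3 of Raptor KO CD4+ and CD8+ cells and 2.41 to 2.63 in the other libraries of these groups. Without the 3 libraries that stood apart the difference was -0.08. Rpl13a rose by 0.85, 0.66, 0.96 and 0.98 while Snord32a fell.

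Of the other pairs, Snord11 over Snord70, from Nop58, which encodes a C/D core protein, differed by -1.04 (exact permutation adjusted p = 7.5e-05). Snord43 over Snord83b, from Rpl3, differed by 1.96 (adjusted p = 0.00043), where Snord43 was on average at 43.7 CPM and Snord83b at 20789 CPM. Snord49a over Snord49b, from 2410006H16Rik, differed by only 0.48 (adjusted p = 0.00011) and Snord49a over Snord65 by 0.43 (adjusted p = 0.037). Snord49b over Snord65 differed by -0.05 (exact permutation p = 0.62). The call of Snord49a over Snord65 was lost without the 3 libraries that stood apart (0.20).

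**Figure D5:**
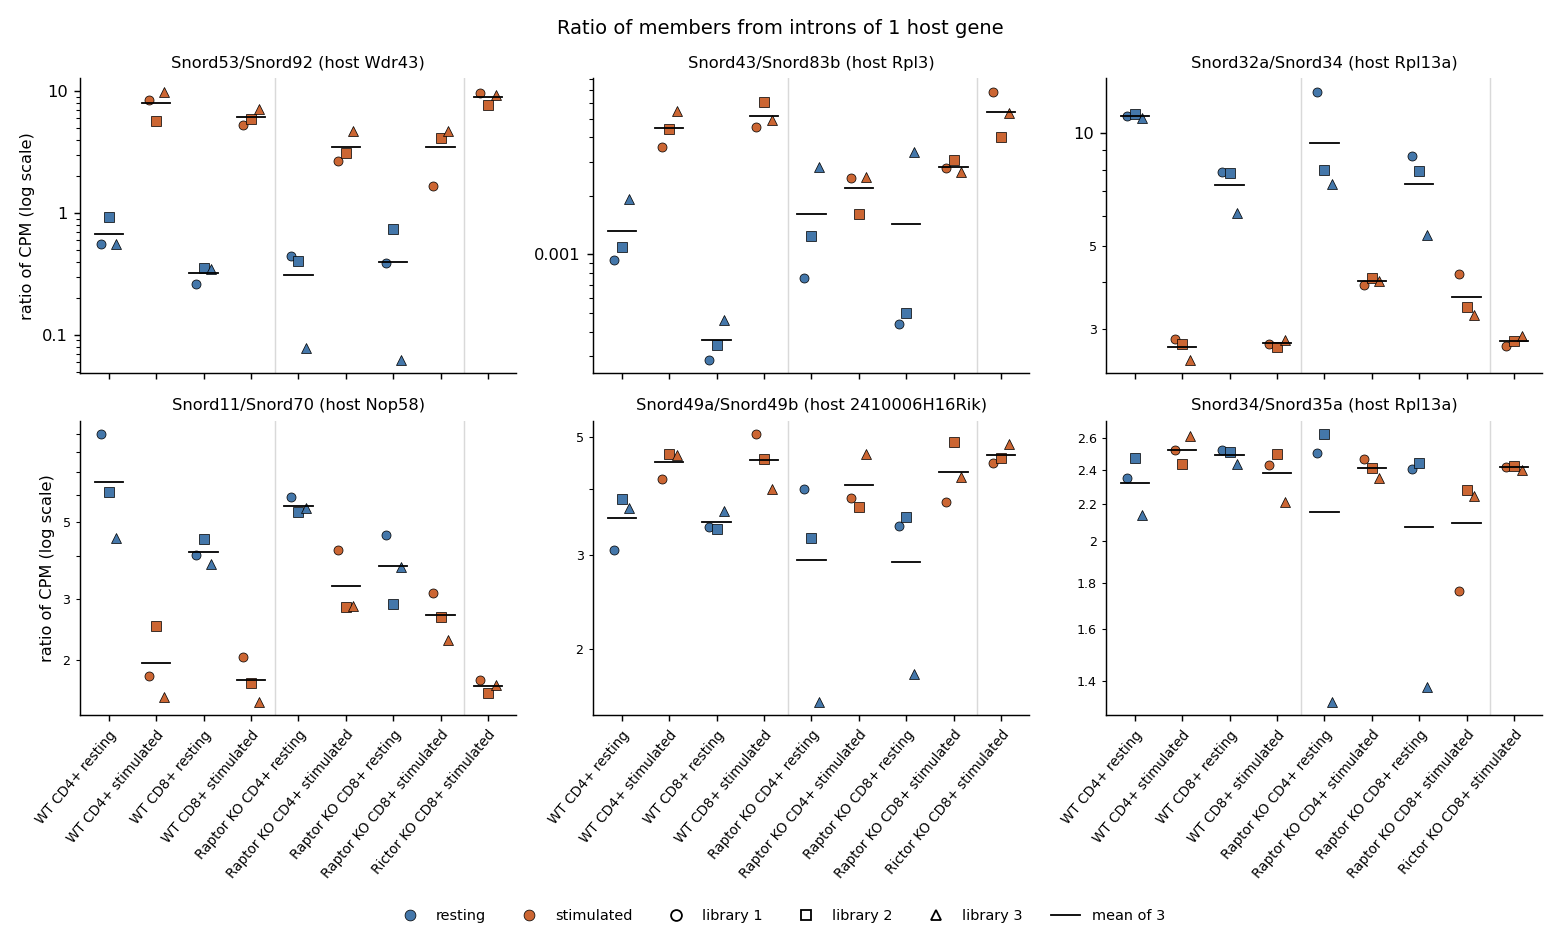
Ratio of 2 members of 1 host gene (y axis, log scale) in each of the 27 libraries of 9 groups, for 6 of the 9 pairs; symbols mark libraries 1 to 3, colours the culture, and bars the mean of 3. Snord53/Snord92 rises from 0.063 to 0.93 at rest to 1.68 or more with stimulation, while Snord34/Snord35a shows no such step.

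Stimulated Raptor KO cells differed from stimulated WT cells in few members called singly and in 5 of the 9 pairs. With TMM scaling, log2 fold changes were positive for 55 of 57 members in CD4+ and 57 in CD8+ cells. Their medians were 0.72 and 1.29, with median SEs of 0.79 and 0.79, where the medians of all genes were 0.04 and 0.03. Scaled to the summed snoRNA counts the members' medians were 0.01 and 0.16. The members share the same libraries, so their signs are not independent. In CD4+ cells 1 of 57 members was higher and 0 lower, where 17.4% of all genes were called: Snord17, at 12096, 17785 and 12797 CPM against 9739, 5435 and 5461 CPM (log2 fold change 1.35, SE 0.42, adjusted p = 0.022). In CD8+ cells 3 members were higher and 0 lower, where 11.7% were called. They were Snord17 (1.78, SE 0.43, adjusted p = 0.0040), Snord32a (1.44, SE 0.48, adjusted p = 0.042) and Scarna9 (1.12, SE 0.35, adjusted p = 0.046). Snord17 did not overlap between genotypes in either subset, and Snord32a was at 25995, 16746 and 16339 CPM in Raptor KO and 10901, 12126 and 7860 CPM in WT CD8+ cells. Snord17 lost its CD4+ call without WT library 2 (1.14), WT library 3 (1.08) or Raptor KO library 2 (1.01), and its CD8+ call without Raptor KO library 1 (1.32). Snord32a lost its call without any of the 3 WT libraries or Raptor KO library 1 (0.92 to 1.66), and Scarna9 without any library but WT library 2 (0.90 to 1.18). Scaled to the summed snoRNA counts, none of the 57 passed in either subset.

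Without the 3 resting libraries, which are in neither group compared here and enter through the shared fit, 2 members were higher in CD4+ (19.1% of all genes called), Snord17 and Snord61, and 8 in CD8+ cells (13.4%): Snord17, Snora30, Snord11, Snord61, Snord32a, Snord110, Snord83b and Scarna9. None was lower. Raptor KO CD8+ stimulated library 1 stood high in the members, with a median log2 difference of 1.10 from the other libraries of its group.

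In 5 of the 9 pairs the stimulated Raptor KO libraries lay apart from all stimulated WT libraries of the same subset (exact permutation within the 2 subsets, two-sided, 12 libraries, 400 arrangements, added after the pairs had been plotted). Snord32a over Snord34 was 3.93 to 4.11 in Raptor KO and 2.48 to 2.81 in WT CD4+ cells, and 3.27 to 4.20 against 2.68 to 2.80 in CD8+ cells. Snord53 over Snord92 was 2.69 to 4.68 against 5.66 to 9.88 in CD4+ and 1.68 to 4.69 against 5.32 to 7.13 in CD8+ cells. In both the Raptor KO values lay between resting and stimulated WT values of the same subset. The mean log2 differences, Raptor KO minus WT, were 0.50 for Snord32a over Snord34, 0.37 for Snord32a over Snord35a, 0.68 for Snord11 over Snord70, -0.95 for Snord43 over Snord83b and -1.06 for Snord53 over Snord92. Each had a p of 0.005, the smallest that this design gives, and an adjusted p of 0.009 over the 9 pairs. For the other 4 pairs the adjusted p was between 0.0675 and 0.48. Leaving out any single stimulated library kept the 5 pairs past the threshold with the same sign.

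The shares of the snoRNA sum had the same order in these libraries. Snord13 took 8.71%, 8.38% and 7.98% in stimulated Raptor KO CD4+ and 7.69%, 8.39% and 8.26% in stimulated Raptor KO CD8+ libraries, below the 12.5% to 14.5% of stimulated WT libraries and above the 2.75% to 6.60% of resting libraries of both genotypes. Snord32a took 14.1% to 15.4% in Raptor KO CD4+ and 11.8% to 12.9% in Raptor KO CD8+ cells, against 9.44% to 10.9% and 8.67% to 9.56% in WT cells. These shares add up to 100% in a library, so they do not move independently. In edgeR's test on the scale of the snoRNA sum neither passed.

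Rictor KO and subset comparisons called no member. In stimulated CD8+ cells 0 of 57 members differed between Rictor KO and WT cells, where 0.162% of all genes were called (edgeR; 0 members at an unadjusted p under 0.05, and 0 with DESeq2). The pair ratios of Rictor KO libraries were 2.70 to 2.86 for Snord32a over Snord34 and 7.72 to 9.75 for Snord53 over Snord92, next to 2.68 to 2.80 and 5.32 to 7.13 in the stimulated WT CD8+ libraries. All 3 Rictor KO libraries carry 1 library code, while those of WT carry 3. At rest, 0 of 57 members differed between Raptor KO and WT cells in CD4+ (0.143% of all genes called, 6 members at an unadjusted p under 0.05) and in CD8+ cells (1.12%, 8 members), and DESeq2 called 0 in both. The resting groups hold the libraries that stood apart, and their spread limits what could be detected. The log2 fold change of Snord58b in CD8+ cells (3.88, SE 1.47, edgeR adjusted p = 0.34) rests on Raptor KO library 3, at 318 CPM. Raptor KO libraries 1 and 2 had 10.3 and 7.88 CPM, next to 10.2 to 10.8 CPM in WT. Between WT CD8+ and CD4+ cells 0 members were called at rest (3.33% of all genes, 7 members at an unadjusted p under 0.05) and 0 when stimulated (5.18%, 0 members), also with DESeq2.

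Most host genes rose while their snoRNAs did not. For 48 tested members the host was tested too, 41 hosts in all. With stimulation the host was higher for 34, 31, 29 and 33 of these members and lower for 6, 8, 3 and 3 in WT CD4+, WT CD8+, Raptor KO CD4+ and Raptor KO CD8+ cells, where 32.4%, 32.0%, 27.9% and 29.5% of all genes were called higher and 32.5%, 30.8%, 24.1% and 26.0% lower. The host was called higher while the member's log2 fold change was negative for 24, 28, 21 and 31 of them. These counts include the resting libraries that stood apart. Without those libraries the median log2 fold change of all tested members was -0.10 in Raptor KO CD4+ and -0.30 in Raptor KO CD8+ cells. How the counts against hosts change without them was not tested. Across the 48 members, which share the libraries and in part the host, Pearson's r between the fold change of member and host was 0.40, 0.22, 0.49 and 0.49. Snhg9, the noncoding host of Snora78, rose by 2.08 in WT CD4+ cells, where Snora78 was at -0.84. The noncoding 2410006H16Rik, host of Snord49a, rose by 2.12, 2.19, 1.31 and 1.37, and Nop58, host of Snord11, by 1.88, 1.90, 1.47 and 1.61. Srcap, host of Snora30, was an exception, at -0.60 without passing in WT CD4+ cells and at -0.88 and past the threshold in WT CD8+ cells. How strand was treated in counting is not known here, so reads of a host intron that run through a member could have been counted for either.

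Genes for the proteins that bind snoRNAs rose with stimulation. All 4 H/ACA core genes, Dkc1, Nop10, Nhp2 and Gar1, and all 4 C/D core genes, Fbl, Nop56, Nop58 and Snu13, rose in each of the 4 comparisons. The H/ACA core medians were 2.37, 1.93, 1.98 and 1.86 and the C/D core medians 1.74, 1.78, 1.39 and 1.51 on the log2 scale, beside medians of all genes between -0.03 and +0.04. Dkc1, the pseudouridine synthase, rose by 2.07, 1.76, 1.84 and 1.60. Of 11 genes for assembly factors, 11, 9, 10 and 7 rose and 0 fell, and of 5 Cajal body genes 3, 3, 3 and 2 rose and 0 fell, beside 32.4%, 32.0%, 27.9% and 29.5% of all genes that rose. In stimulated CD4+ cells, Raptor KO against WT, 2 H/ACA core, 1 C/D core, 3 assembly and 2 Cajal body genes were lower and 0 higher, and in CD8+ cells the counts were 0, 1, 2 and 1. Of all genes, 8.56% were lower in the CD4+ and 5.42% in the CD8+ comparison.

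Other short noncoding RNAs on the list had lower sums in stimulated than in resting WT libraries, at 11367 to 22803 against 27798 to 29618 CPM in CD4+ and 16214 to 18373 against 23193 to 26934 CPM in CD8+ cells, and their sums overlapped between the cultures in Raptor KO cells of both subsets. They were not tested against the snoRNAs. Of 12 tested singly, 2 rose and 1 fell in WT CD4+, 1 rose and 2 fell in WT CD8+, 0 changed in Raptor KO CD4+ and 2 rose and 2 fell in Raptor KO CD8+ cells. Vaultrc5, a vault RNA, rose by 1.92, 1.30 and 1.69 in WT CD4+, WT CD8+ and Raptor KO CD8+ cells. Rn7sk, which holds the elongation factor P-TEFb inactive, fell in the 2 WT subsets (-1.70 and -1.86) and in Raptor KO CD8+ cells (-1.06). Their medians were -0.10, -0.84, -0.19 and -0.37, and 64.9%, 62.8%, 52.0% and 55.6% of all genes were called in the 4 comparisons.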

How the data were processed

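Mouse T cell total RNA was fragmented by ultrasound and adaptors were ligated to its 3′ ends, with no selection step named, per the labels' protocols. STAR 2.6.0a and GRCm38 are named in the submitters' processing notes. No counter, gene annotation or strand setting is given in the sources used here. The authors deposited raw counts of reads per gene as 1 table for all 27 libraries; 26765 of its 26802 rows were matched to GENCODE M21 and 37 were not.

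Rn45s was left out. Genes passing filterByExpr (minimum count 10, minimum total 15) were tested in edgeR 4.0.16 (R 4.3.3) by the quasi-likelihood test with TMM scaling, 1 mean per group over the 27 libraries, and Benjamini-Hochberg adjustment over 10493 genes at 0.05. The common biological coefficient of variation was 0.187. Intervals of counting error are not printed, since PCR reads without molecular identifiers are not independent molecules. The named members were the 6 highest of each class, the 4 highest and 4 lowest called folds of each comparison, and members known for pre-rRNA cleavage; others were chosen after their values were seen, as were Snord7, Snord92, Snord34, Snord110 and Scarna9. A host gene spans the whole member on the same strand.

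Members and lists were chosen with earlier results of these data known. A permutation test of the class sums had been planned and is not reported for that reason. Pair ratios used log2 of CPM plus 0.5, averaged by group, with an exact permutation test (scipy 1.17.1). Alternatives were DESeq2 1.42.0, 5 other scalings, no filter, the library code as a block, and leaving out libraries. Replicates differed beyond counting noise in all 27 within-group pairs (chi-square over degrees of freedom 2.44 to 41.3). The edgeR fit and the permutation test were tested on simulated data.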

Additional observations from a re-analysis of the deposited data

How the results depend on the processing

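Scaling changed the counts of called members more than the method did. With totals that include Rn45s, stimulation called 26 members in WT CD4+ and 29 in Raptor KO CD4+ cells, and Raptor KO against WT 1 in resting CD4+, 1 in resting CD8+ and 2 in stimulated CD4+ cells; CD8+ against CD4+ WT cells at rest gave 1. Scaled to the snoRNA sum, stimulation called 13 in WT CD8+ and 14 in Raptor KO CD8+ cells, and Raptor KO against WT 1 in resting CD8+, 0 in stimulated CD4+ and 0 in stimulated CD8+ cells. Non-Rn45s totals gave 3 for Raptor KO against WT in stimulated CD4+ cells and 4 for CD8+ against CD4+ WT cells at rest. With no filter on low counts, stimulation called 4 in Raptor KO CD4+ cells and Raptor KO against WT 0 in stimulated CD4+ cells. DESeq2 called 12, 40, 14 and 28 members in the 4 stimulation comparisons.

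Without the 3 libraries that stood apart (chosen after seeing the data), stimulation called 25, 47, 4 and 10 members in WT CD4+, WT CD8+, Raptor KO CD4+ and Raptor KO CD8+ cells, and Raptor KO against WT 2 in stimulated CD4+ and 8 in stimulated CD8+ cells. Leaving out 1 library at a time gave 7 to 17, 21 to 34, 2 to 13 and 7 to 36 for the 4 stimulation comparisons, 0 to 5 and 0 to 2 for Raptor KO against WT in stimulated CD4+ and CD8+ cells, and 0 to 1 for the difference of effects in CD4+ cells. The lowest counts came without stimulated library 3 in Raptor KO CD4+ (2), without resting or stimulated library 3 in Raptor KO CD8+ (7) and without stimulated library 3 in WT CD8+ cells (21), and the 17 of WT CD4+ without stimulated library 1.

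Deviations of libraries with the same code, 1 to 3, correlated at -0.04 to 0.38, and in 19 of 30 cases the own code was highest. All 3 codes were over 0.1 in 1 of 10 comparisons, WT CD8+ against CD4+ cells at rest, where the blocked fit also called 0 members. With the code as a replicate block, stimulation called 9, 37, 8 and 19 members, and Raptor KO against WT 2 in stimulated CD4+ and 2 in stimulated CD8+ cells.

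The H/ACA sum differed with stimulation by -1.64 in CPM of protein-coding counts and by -0.43 as a median over members, and the C/D sum by -1.28 in CPM of protein-coding counts. The ratio's stimulation difference turned to +0.46 with medians, and its Raptor difference to -0.0564 with medians and -0.00012016 without the 3 libraries. Reversed values of single results were +0.69 for Snord58b in Raptor KO CD8+ cells without resting library 3 alone or with the other two (-4.54 to +0.69 over single libraries left out), -0.0783 for Snord34 over Snord35a without the 3 libraries, and 0.0028 and 0.013 for Snord49b over Snord65 with stimulation, each without 1 Raptor KO CD8+ library (-0.106 to 0.0128 over libraries left out), and 0.0040 for its Raptor difference (-0.187 to 0.0040). Except where a library or samples left out make the change, the cause was not tested. Of the other values of single members and pairs under an alternative, 623 kept their side of the threshold, 93 lost their call and 1 gained one. Depth limits the low members most, such as Snord90, at 0.439 to 4.42 CPM in stimulated WT CD4+ libraries, with an SE of 2.44 on its log2 fold change.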
